A study of Felis catus with 12 samples.

Results

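The genes described here are the nuclear-encoded subunits of respiratory complex I, chosen by their symbols: NDUFA, NDUFB, NDUFC, NDUFS, NDUFV or NDUFAB followed by a number. The symbols of 37 of the 30785 genes listed matched, and the assembly factors (NDUFAF genes) were not counted among them. NDUFC2 was not analysed here. All 37 had reads in every library, with at least 13 reads per gene and library and at most 3046, and all 37 passed the filter for testing, 10 or more reads in 3 or more of the 10 libraries whose cats the study lists as sequenced, which 8715 genes passed.

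Complex I oxidises NADH at the tip of an arm that reaches into the mitochondrial matrix, passes the electrons along a chain of iron-sulfur clusters to ubiquinone, and couples this to the pumping of protons through an arm in the inner membrane. The matrix arm is divided into the N module, where NADH is oxidised, and the Q module, where ubiquinone is reduced. The membrane arm is divided into a proximal and a distal part, whose core subunits are encoded by mitochondrial DNA. Heart muscle is rich in this complex because its contraction depends on oxidative phosphorylation.

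The samples were left ventricular biopsies that were taken post mortem from 12 cats, all client-owned pets of several breeds and different ages with no experimental treatment, and their RNA was read directly, without conversion to cDNA, on Nanopore flow cells. Each cat gave 1 library and there was no replicate library of a cat, so p-values measure the spread between cats. The only groups that the labels give are the flow cells: A held cats 11, 23, 30 and 31, B held cats 10, 15, 35 and 36, and C held cats 22, 29, 37 and 38. Cats 22 and 29 are not on the study's list of sequenced cats, and their libraries entered the comparisons of flow cells but not those with traits. That list also names cats whose numbers no library carries, so which cats these libraries came from is not certain. Each cat was on 1 flow cell, so the flow cell and the cats on it cannot be told apart. The study's cohort table gives most of these cats a known cardiac death, from heart failure or arterial thromboembolism. By the numbers the libraries carry, this holds for all cats of flow cell A, for all of B except cat 36 and for all of C except cat 29.

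The libraries held 789257 to 2263110 reads on genes. Values are the deposited ones, which are reads scaled by 1 size factor per library. Since they were not corrected for transcript length, levels were not compared between genes, and where a gene is said to have many or few reads this concerns counting error only. Of 14 cardiomyocyte markers listed in the files, all had reads, and together they made up 12.0% to 19.3% of a library. The 7 mitochondrially encoded complex I genes in the files were listed at 0 in all 12 libraries, so only the nuclear-encoded subunits could be described.

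The 37 genes together took 324402 reads. On flow cell A their share of the reads on genes was 1.22% in cat 11, 1.82% in cat 23, 1.89% in cat 30 and 1.504% in cat 31. On flow cell B it was 2.49% in cat 10, 2.43% in cat 15, 2.09% in cat 35 and 2.17% in cat 36, and on flow cell C it was 2.71% in cat 22, 2.91% in cat 29, 2.30% in cat 37 and 2.22% in cat 38. All 4 libraries of flow cell A lay below all 8 others. The mean share was 1.61% ± 0.310 (SD, n = 4) on flow cell A, 2.29% ± 0.195 (SD, n = 4) on B and 2.53% ± 0.327 (SD, n = 4) on C, so that the log2 ratio of flow cell A to the mean of the other 8 was -0.59. Counting error alone gave 95% Wilson intervals of 0.0286 to 0.0678 percentage points in width.

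**Figure D1:**
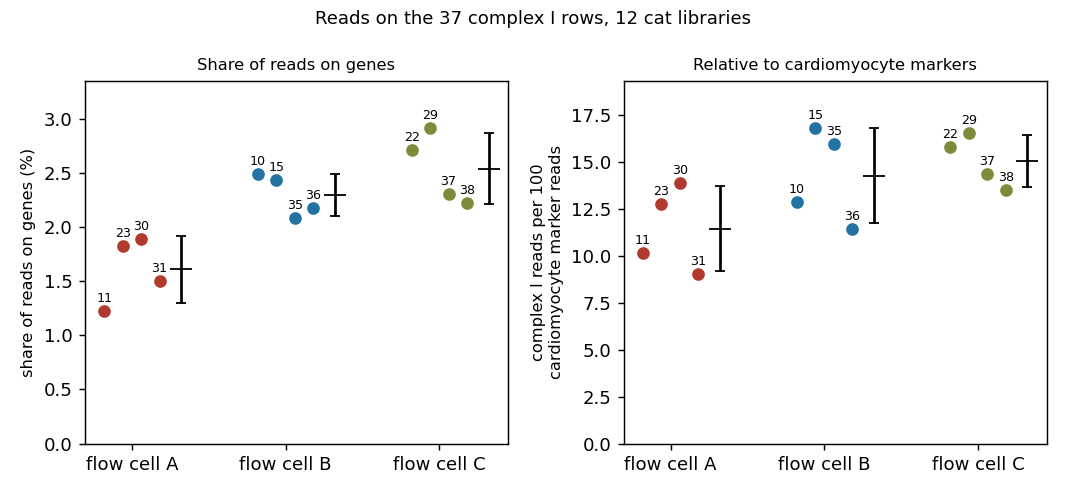
Reads on the 37 complex I genes in each of the 12 libraries, as a percentage of reads on genes (left) and per 100 reads on cardiomyocyte markers (right); points are cats, numbered, and the bars are the mean and SD of 4 cats. The 4 libraries of flow cell A reach at most 1.89% of reads, below the lowest other library at 2.09%, whereas per 100 cardiomyocyte marker reads the flow cells overlap. MYL2 has the most reads among these markers.

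Set against the reads on cardiomyocyte markers, the gap was smaller. Flow cell A had 9.02 to 13.9 complex I reads per 100 cardiomyocyte marker reads, and the other libraries had 11.4 to 16.8, so that the groups overlapped. Among these markers MYL2 had the most reads and weighed most in the denominator. Its mean value was 99582 on flow cell A and 112074 on B and C. The ratio without MYL2 was not computed. In bulk tissue, fewer cells of a type and less RNA per cell cannot be told apart.

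Flow cell A was first compared with the mean of flow cells B and C, gene by gene, on log2(value + 1) with limma. On flow cell A, 17 of the 37 genes were lower at an adjusted p under 0.05 and none was higher, where 3.61% of all genes tested were lower and 1.84% were higher. All 37 had at least 10 reads in every library. A fit on the 4584 such genes alone gave 369 lower, among them 23 of the 37. The log2 difference was below 0 for 36 of the 37, against 47.6% of all genes. Its median was -0.74 over the 37 and 0.03 over all genes tested. For 16 of the 37, each value on flow cell A was below each of the 8 others, as it was for 2.51% of all genes tested. The 2 calls with the largest differences were NDUFB7 and NDUFS6, and the gene with the smallest difference was NDUFB4.

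Markers of other cell types also differed on flow cell A. On flow cell A the share of reads on 10 fibroblast markers was 0.115% to 0.350%, against 0.0230% to 0.175% elsewhere, and that on 4 smooth muscle markers was 0.0360% to 0.102%, against 0.00667% to 0.0235%. Beside the counts of markers, 1.84% of all genes tested were higher on flow cell A and 3.61% were lower. Of the fibroblast markers tested, 5 of 10 were higher on flow cell A and none was lower. Of the smooth muscle markers 2 of 3 were higher. Of the 14 cardiomyocyte markers, 8 were lower and none was higher, with a median log2 difference of -0.92, while the share of the whole list overlapped (12.0% to 16.7% against 13.0% to 19.3%). MYL2, a gene of that list with many reads, differed by -0.16 (SE 0.30, limma adjusted p = 0.79). None of 8 endothelial, 6 leukocyte or 1 adipocyte marker tested was called. The part of these cell types in the complex I result was not tested.

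The count of calls rested in part on single libraries. Without cat 11, which had the most reads of all and the lowest complex I share, 4 genes were called (NDUFB7, NDUFS6, NDUFB9 and NDUFA13), and without cat 31 there were 10. Without cats 22 and 29 there were 9. The calls over all genes tested fell with them, from 475 to 47 without cat 11, 171 without cat 31 and 262 without cats 22 and 29. Without the 2 libraries with the most smooth muscle marker reads, which are cats 11 and 31, 0 of the 37 were called by limma, and 0 of all genes (907 at an unadjusted p under 0.05), while 36 of the 37 still lay below 0 with a median of -0.57 and 20 had an unadjusted p under 0.05. This last comparison, with 2 libraries left on flow cell A, was chosen after the data were seen.

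**Figure D2:**
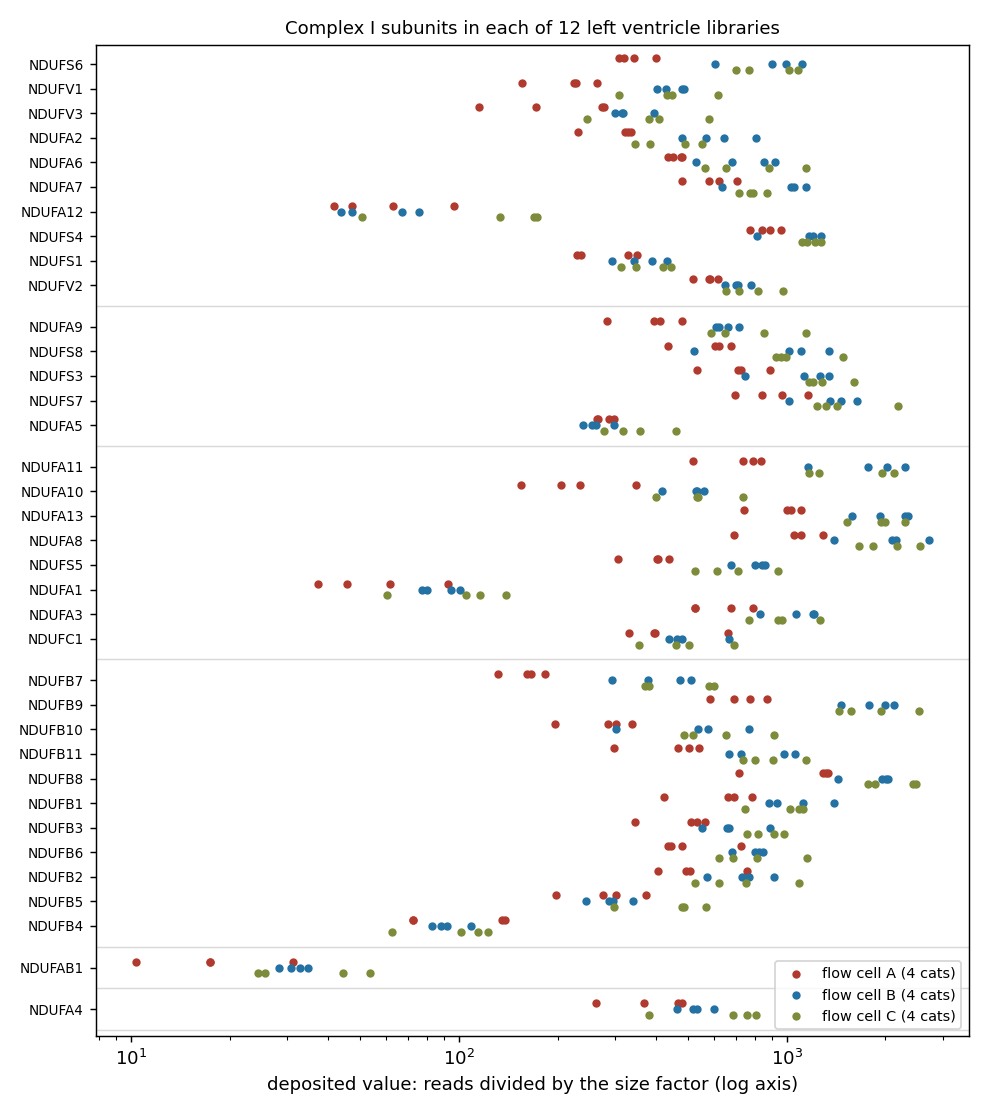
Deposited value (reads divided by the size factor, log axis) of 36 complex I genes in each library, 4 points per flow cell; from top to bottom the blocks are the N module, the Q module, the proximal and the distal membrane arm, NDUFAB1 and NDUFA4. Flow cell A lies to the left of the others without overlap for 15 of the genes drawn, and overlaps them for NDUFB4, NDUFA5 and NDUFC1, among others.

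In the N module, 3 of 10 genes were lower on flow cell A (NDUFS6, NDUFV1 and NDUFA2) and all 10 lay below 0, with a median log2 difference of -0.63. For this and the later modules, the shares over all genes tested were 3.61% lower and 47.6% below 0. NDUFV1 carries the flavin that accepts electrons from NADH. Its values were 156, 263, 227 and 225 on flow cell A, 429, 479, 485 and 402 on B, and 308, 615, 432 and 446 on C, in the order of the cats given above. All 4 values on flow cell A lay below all others, and the log2 difference was -1.04 (SE 0.20, limma adjusted p = 0.0096).

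NDUFV2, which holds an iron-sulfur cluster next to the flavin, had values of 517, 580.3, 582 and 619 on flow cell A, 778, 698, 711 and 646 on B, and 652, 973, 819.7 and 714 on C. Flow cell A again lay below the rest without overlap, but the gap between 619 and 646 was narrow and the log2 difference of -0.37 (SE 0.16) did not pass (limma adjusted p = 0.19). NDUFS1, the largest subunit of the matrix arm and the holder of several iron-sulfur clusters, had values of 229.7, 329, 349 and 236 on flow cell A, 342, 432, 294 and 389 on B, and 312, 443, 348 and 419 on C. The groups overlapped and the difference of -0.39 (SE 0.19) was not called (limma adjusted p = 0.24). The 3 core subunits of the N module therefore had log2 differences from -1.04 to -0.37.

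NDUFS6, a zinc-binding accessory subunit that joins late in assembly, had values of 307, 318, 343 and 399.6 on flow cell A. It had 995, 900.0, 603 and 1115 on B, and 1083, 1016, 767 and 702 on C. The highest value on flow cell A was below the lowest of the rest, and the log2 difference was -1.37 (SE 0.20, limma adjusted p = 0.0023). NDUFA2, a small subunit with a thioredoxin-like fold, had values of 231, 321, 336 and 328 on flow cell A, 567, 803, 644 and 479 on B, and 489, 552, 383 and 345 on C. Its groups did not overlap, although the 336 of cat 30 was close to the 345 of cat 38, and the difference was -0.78 (SE 0.20, limma adjusted p = 0.032). NDUFA2 lies across another gene, TMCO6, in the RefSeq gene table, so some of its reads may belong there.

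NDUFA12, an accessory subunit related in sequence to the assembly factor NDUFAF2, was among the genes with few reads, and its values were 41.5, 63.1, 96.8 and 47.1 on flow cell A, 75.5, 43.6, 67.0 and 47.2 on B, and 173, 169.6, 133 and 50.7 on C. Cats 22, 29 and 37 stood above all others. The other accessory subunits of the module had mean values of 209 ± 79.6 on flow cell A and 367 ± 101 on B and C for NDUFV3, 459 ± 21.5 and 778 ± 208 for NDUFA6, 597 ± 92.9 and 876 ± 180.3 for NDUFA7, and 866 ± 80.3 and 1150.1 ± 148 for NDUFS4 (SD, n = 4 and n = 8). NDUFS4 helps to hold the N module in place, and NDUFA6 binds the acyl carrier protein to the matrix arm. Of these, NDUFA6 did not overlap between the groups, and none of the 4 was called.

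In the Q module, 2 of 6 genes were lower on flow cell A (NDUFA9 and NDUFS3) and all 6 lay below 0, with a median of -0.71. NDUFS7 holds the iron-sulfur cluster that passes electrons to ubiquinone. NDUFS7 had values of 695, 969.8, 1162 and 839.9 on flow cell A, 1459.8, 1637, 1015 and 1354 on B, and 1424, 2182, 1239 and 1316 on C. The 1162 of cat 30 exceeded the 1015 of cat 35, and the difference of -0.66 (SE 0.21) was not called (limma adjusted p = 0.072).

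NDUFS3, around which assembly of the matrix arm begins, had values of 532, 892, 726 and 708 on flow cell A, 1126, 1265, 747 and 1349 on B, and 1202, 1604, 1169 and 1278 on C. The 892 of cat 23 exceeded the 747 of cat 35, but the difference of -0.76 (SE 0.20) passed (limma adjusted p = 0.036). NDUFS3 overlaps KBTBD4 in the gene table. NDUFS8, which holds a pair of iron-sulfur clusters, had values of 433, 676, 623 and 605 on flow cell A, 1017, 1107, 519.9 and 1349.8 on B, and 994, 1489, 959.9 and 929.5 on C. Cat 35 fell among the values of flow cell A, and the difference of -0.80 (SE 0.24) was not called (limma adjusted p = 0.061).

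Over the 7 core subunits, 2 were called lower (NDUFV1 and NDUFS3), where 3.61% of all genes tested were. At an unadjusted limma p under 0.05 there were 6, where 22% of all genes tested passed. For 3, flow cell A lay below all others without overlap, as it did for 2.51% of all genes tested. The accessory subunit NDUFA9, which binds a nicotinamide nucleotide near the ubiquinone pocket, averaged 391 ± 81.5 on flow cell A and 731 ± 187 on B and C (SD, n = 4 and n = 8). Its groups did not overlap, and its log2 difference was -0.89 (SE 0.20, limma adjusted p = 0.019). It overlaps AKAP3 in the gene table. NDUFA5, another accessory subunit of the Q module, had values of 266, 265, 287 and 297 on flow cell A, 263, 239.6, 298 and 256 on B, and 358, 459, 318 and 277 on C. Flow cells A and B lay together and the difference of -0.12 (SE 0.17) was within the spread (limma adjusted p = 0.73).

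In the proximal membrane arm, 6 of 8 genes were lower on flow cell A and all 8 lay below 0, with a median of -0.97. NDUFA10, a large subunit on the matrix face of the membrane arm that resembles a nucleoside kinase, had values of 155, 348, 205 and 234 on flow cell A, 529.8, 559.6, 531 and 416 on B, and 537, 734, 401 and 533 on C. Its groups did not overlap and the log2 difference was -1.21 (SE 0.22, limma adjusted p = 0.0079). NDUFA11, a membrane subunit that lies where complex I meets complex III in supercomplexes, had values of 516, 733, 791 and 833 on flow cell A, 1769.8, 2019, 1160.3 and 2292 on B, and 1955, 2128, 1252 and 1172 on C. Its highest value on flow cell A, 833, was well below the lowest of the rest, 1160.3, and the difference was -1.23 (SE 0.23, limma adjusted p = 0.0086).

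NDUFA13, also known as GRIM-19, spans the membrane next to the matrix arm. Its values were 742, 1104, 1005 and 1032 on flow cell A, 2292, 1931, 1584 and 2335 on B, and 1994, 2301, 1937 and 1523 on C. The groups did not overlap, and the difference was -1.03 (SE 0.18, limma adjusted p = 0.0079). NDUFA8, a subunit of the intermembrane space held by disulfide bonds, had values of 689, 1288, 1056 and 1104 on flow cell A, 2091, 2149, 1397 and 2712 on B, and 2168, 2541, 1655 and 1833 on C. Cat 23 on flow cell A, at 1288, came near cat 35 on B, at 1397, without reaching it, and the difference was -1.01 (SE 0.22, limma adjusted p = 0.015).

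NDUFS5, another disulfide-bonded subunit of the intermembrane space, averaged 388 ± 56.9 on flow cell A and 745 ± 138 on B and C, and NDUFA3 averaged 628 ± 127 and 1029 ± 185 (SD, n = 4 and n = 8). Both were called. NDUFA1, a small subunit with a single membrane helix, had values of 37.2, 61.8, 92.6 and 45.5 on flow cell A, 94.7, 101, 77.2 and 80.1 on B, and 105, 139.7, 116 and 60.3 on C. Cat 30 lay among the other flow cells, and the 61.8 of cat 23 exceeded the 60.3 of cat 38. The difference of -0.74 (SE 0.26) was not called (limma adjusted p = 0.11). NDUFC1, a small subunit of the same arm, had values of 329, 398, 392 and 660.4 on flow cell A, 479, 463, 437 and 669 on B, and 460.4, 688, 502 and 355 on C. The 660.4 of cat 31, a library low for most subunits, was among the highest values of NDUFC1, and the difference was -0.21 (SE 0.22, limma adjusted p = 0.62).

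In the distal membrane arm, 6 of 11 genes were lower on flow cell A and 10 lay below 0, with a median of -0.71. NDUFB7, a disulfide-bonded subunit on the side of the intermembrane space, had the largest difference of the 37. Its values were 132, 183, 166 and 162 on flow cell A, 472, 377, 292 and 511 on B, and 578, 602, 381 and 369 on C. The 4 values on flow cell A were close together and all below 292, and the log2 difference was -1.44 (SE 0.21, limma adjusted p = 0.0023). NDUFB9, which binds a copy of the acyl carrier protein at the far end of the arm, had values of 582, 771, 692 and 868 on flow cell A, 1786, 2128, 1468 and 1997 on B, and 1939, 2527, 1569 and 1439.9 on C. Its groups were separated by a gap from 868 to 1439.9, and the difference was -1.34 (SE 0.19, limma adjusted p = 0.0023).

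The remaining called genes of the distal arm were NDUFB10, a disulfide-bonded subunit of the intermembrane space, which averaged 279.9 ± 59.8 on flow cell A and 594 ± 186 on B and C, NDUFB11 (452 ± 107 and 878 ± 173), NDUFB8 (1163 ± 301 and 1993 ± 340.1) and NDUFB3 (488 ± 97.6 and 779 ± 148; SD, n = 4 and n = 8). Their log2 differences were -1.04 (SE 0.25), -0.97 (SE 0.21), -0.80 (SE 0.21) and -0.68 (SE 0.19), with limma adjusted p-values from 0.015 to 0.045. NDUFB11 and NDUFB8 did not overlap between the groups, and NDUFB10 and NDUFB3 did. Among the genes not called, NDUFB1 averaged 640.1 ± 154 and 1039 ± 194, and NDUFB2 averaged 540.5 ± 152 and 746 ± 187.

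NDUFB6, a membrane subunit of the distal arm, had values of 433, 445, 479 and 723 on flow cell A, 799, 844, 679 and 825 on B, and 813, 1153, 687 and 623 on C. Cat 31 was again high, within the range of the other flow cells, and the difference of -0.64 (SE 0.20) was not called (limma adjusted p = 0.074). NDUFB5, a single-helix subunit of the same arm, had values of 198, 301, 371 and 274 on flow cell A, 339, 295, 245 and 288 on B, and 487, 566, 481 and 297 on C. Flow cells A and B overlapped and cats 22, 29 and 37 on C stood above them, with a difference for flow cell A of -0.36 (SE 0.21, limma adjusted p = 0.33). NDUFB4 averaged 105 ± 37.2 on flow cell A and 96.6 ± 19.5 on B and C (SD, n = 4 and n = 8), and it alone of the 37 had a difference above 0, at 0.07 (SE 0.24, limma adjusted p = 0.90).

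NDUFAB1 is the mitochondrial acyl carrier protein, which sits in complex I and also carries the growing chain in mitochondrial fatty acid synthesis. It had the fewest reads of the 37, and its values were 17.4, 17.5, 31.1 and 10.4 on flow cell A, 28.2, 32.7, 30.7 and 34.7 on B, and 25.7, 44.3, 24.3 and 53.7 on C. Cat 30 overlapped the others, the difference was -0.87 (SE 0.30, limma adjusted p = 0.10), and counting error alone gave a coefficient of variation of 18.6%, against 2.49% for NDUFA8. NDUFA4 carries a complex I name but is now counted among the subunits of complex IV. Its values were 262, 478, 466 and 368 on flow cell A, 601, 463, 531 and 518 on B, and 757, 804, 684 and 380.2 on C. The groups overlapped, and the difference of -0.59 (SE 0.22) was not called (limma adjusted p = 0.13).

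**Figure D3:**
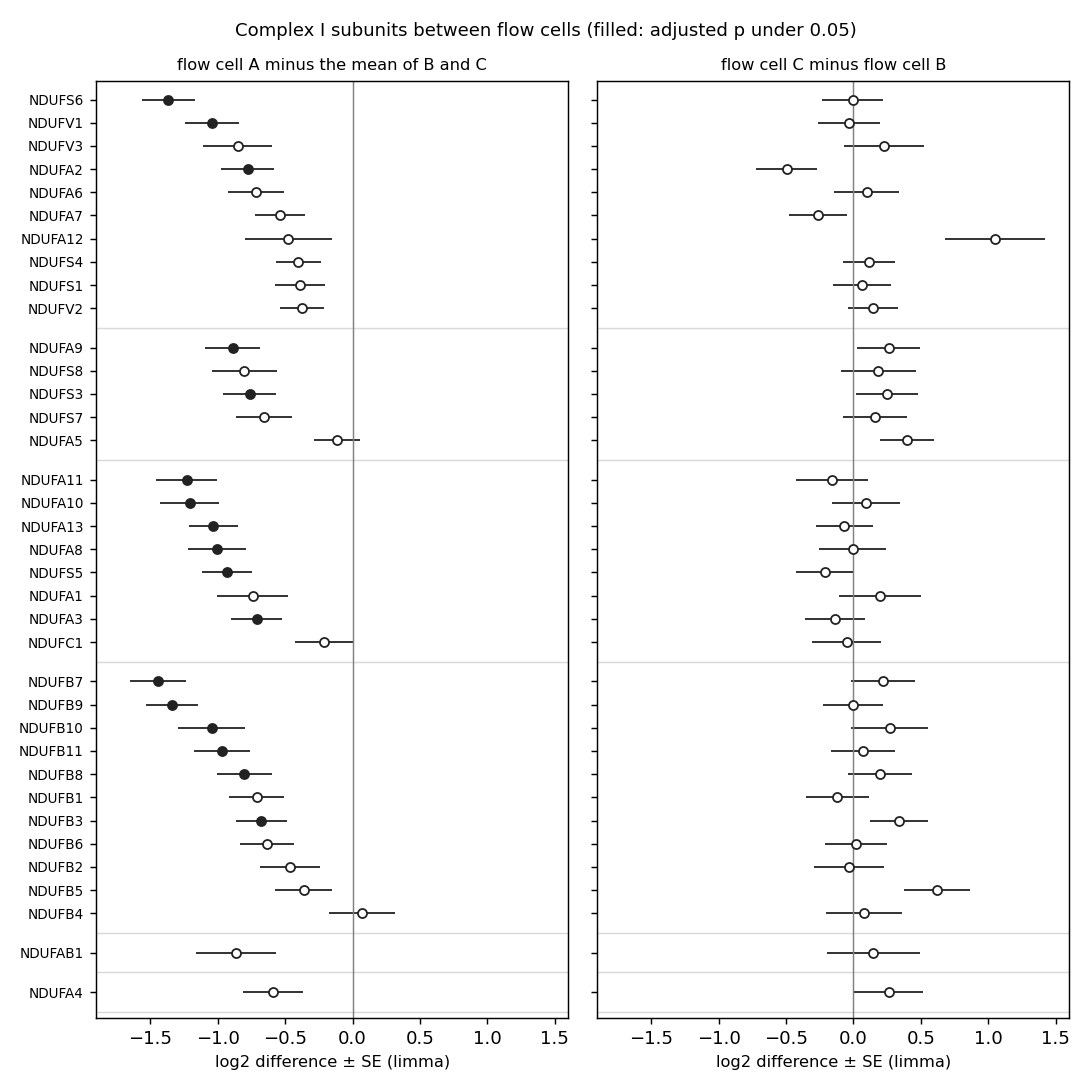
Log2 difference of 36 complex I genes between flow cells, with its standard error from limma: flow cell A minus the mean of B and C (left) and flow cell C minus flow cell B (right). Filled points have an adjusted p under 0.05, which 17 genes reach on the left, all below 0, and none on the right.

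The log2 differences of the subunits for flow cell A ran from -1.44 to 0.07, and the make-up of the complex I reads differed with them. NDUFB7 took 0.848% to 0.989% of the complex I reads of a library on flow cell A and 1.17% to 1.80% elsewhere. NDUFB9 took at most 4.55% on flow cell A and at least 5.40% elsewhere, and NDUFS6 took 1.65% to 2.31% and 2.55% to 3.36%. These 3 genes took smaller shares on flow cell A without overlap. In the other direction, NDUFA5 took 1.37% to 2.00% on flow cell A and 0.743% to 1.26% elsewhere, NDUFC1 took 2.03% to 3.46% and 1.33% to 1.97%, and NDUFB4 took 0.375% to 0.713% and 0.234% to 0.362%. For NDUFB8 the shares overlapped, at 5.35% to 6.88% and 5.92% to 7.54%. Because shares within the complex add up, a gain of one gene and a loss of another are not independent.

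**Figure D4:**
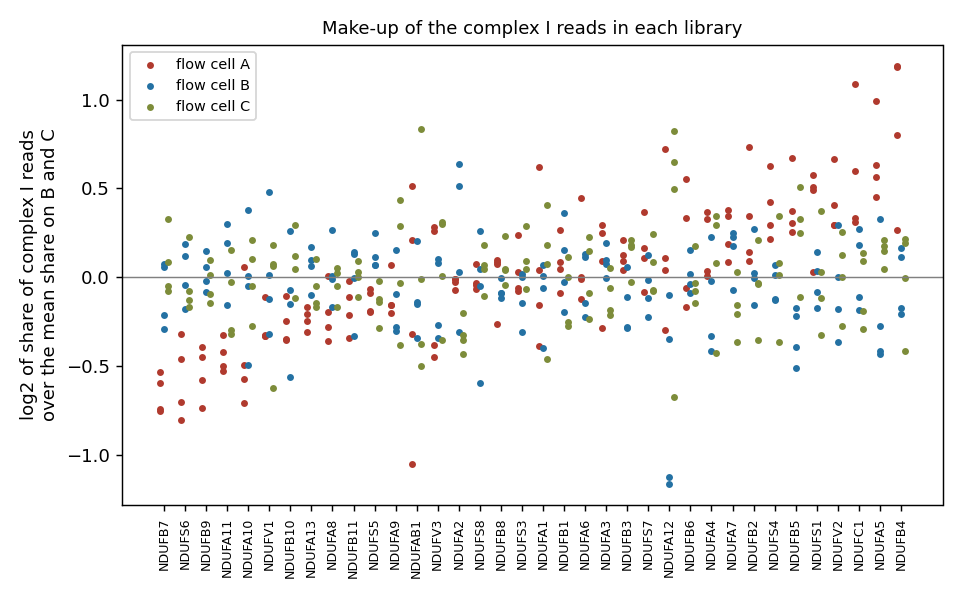
Share of 36 genes among the complex I reads of a library, as log2 of the ratio to its mean share on flow cells B and C, with 1 point per library and genes ordered by the ratio of flow cell A. Flow cell A lies lowest for NDUFB7, NDUFS6 and NDUFB9 and highest for NDUFB4, NDUFA5 and NDUFC1, and NDUFA12 scatters widely within flow cells B and C.

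Flow cell C was then compared with flow cell B, as a measure of how far the subunits differ between flow cells other than A. Of the 37 genes, 0 were called by limma, as were 0% of all genes tested, and 3 had an unadjusted p under 0.05, where 7.87% of all genes did. edgeR and DESeq2 on the recovered reads called 0 of the 37 as well, and 0 and 27 of all genes. The log2 differences ran from -0.49 to 1.05 with a median of 0.09, and 24 were above 0. The direction of the median turned with single libraries: it was -0.02 without cat 29, -0.01 without cat 35 and -0.08, with 25 genes below 0, without cats 22 and 29. NDUFA12 averaged 58.3 ± 15.4 on B and 132 ± 56.8 on C, a difference of 1.05 (SE 0.37, limma adjusted p = 0.48). NDUFB5 averaged 292 ± 38.6 on B and 458 ± 114 on C, a difference of 0.62 (SE 0.24, limma adjusted p = 0.53), and NDUFA2 averaged 623 ± 138 and 442 ± 95.1, a difference of -0.49 (SE 0.23, limma adjusted p = 0.62; SD, n = 4 each). For NDUFA12 and NDUFB5 the high values on C were those of cats 22, 29 and 37, of which cats 22 and 29 are the 2 that are not on the study's list.

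Genes around the complex were read from lists of assembly factors, of the other respiratory complexes and of regulators of mitochondrial biogenesis. Beside the counts for these lists, 3.61% of all genes tested were lower on flow cell A, 1.84% were higher and 47.6% lay below 0. Of 16 assembly factors tested, 2 were lower on flow cell A and none was higher, with a median log2 difference of -0.18. These were ECSIT, which takes part in building the membrane arm, at 93.7 ± 58.1 on flow cell A and 208 ± 54.9 elsewhere (log2 difference -1.29, SE 0.30, limma adjusted p = 0.022), and NDUFAF8, a partner of NDUFAF5, at 110.0 ± 23.8 and 214 ± 49.1 (-0.94, SE 0.22, limma adjusted p = 0.021). NDUFAF5 itself differed by 0.53 (SE 0.27) and was not called (limma adjusted p = 0.26). The median of the assembly factors thus lay nearer to that of all genes, 0.03, than that of the subunits did, and the difference between the lists was not tested.

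Of the other complexes, 4 subunits of complex II and 15 of complex V were tested, and those of complexes III and IV were not analysed here. All 19 lay below 0 on flow cell A, 8 of them were called, and their median was -0.68. The calls with the smallest p were ATP5F1D, of the central stalk of ATP synthase, which averaged 549 ± 125 on flow cell A and 1186 ± 239 elsewhere (log2 difference -1.12, SE 0.20, limma adjusted p = 0.0079), ATP5PD of its peripheral stalk (-1.09, SE 0.20, limma adjusted p = 0.0087) and ATP5ME of its membrane part (-1.04, SE 0.20, limma adjusted p = 0.0089). In complex II, SDHB, the iron-sulfur subunit, was called (-0.68, SE 0.19, limma adjusted p = 0.044). The median of complex I, -0.74, was close to that of complexes II and V.

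Of 8 regulators of mitochondrial biogenesis tested, 2 were lower on flow cell A and none was higher. PPARGC1A, the coactivator PGC-1 alpha, averaged 20.6 ± 14.3 on flow cell A and 86.4 ± 75.7 elsewhere (log2 difference -1.78, SE 0.43, limma adjusted p = 0.027). ESRRA, a nuclear receptor that it activates, averaged 85.4 ± 40.6 and 180.5 ± 31.2 (-1.18, SE 0.26, limma adjusted p = 0.017; SD, n = 4 and n = 8). TFAM, which packages and transcribes mitochondrial DNA, differed by -0.46 (SE 0.30) and was not called (limma adjusted p = 0.37). The same libraries differed in the cardiomyocyte markers given above, and the part of cell type in these values was not tested.

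The study related gene expression in the ventricle to the age of the cats and to the fibrosis in their sections. It did so by gene set enrichment over genes ranked by Spearman correlation. With more fibrosis it reported lower expression of genes of mitochondrial organization. No gene set was tested here. The study also measured the percentage of adipocytes, which was added here as a trait. Spearman's rho was computed for each gene with age in 9 cats, with the myocardial fibrosis percentage in 8 cats and with the adipocyte percentage in 10 cats, and p-values came from two-sided permutation tests, exact for the first 2 traits, adjusted over the 8715 genes. No complex I gene was called for any of the 3 traits, nor was any other gene (0%). For fibrosis and the adipocyte percentage, a single gene could not have been called on its own. With 8 cats, or with 100000 draws for 10 cats, the smallest possible p is too large to pass over 8715 genes. At an unadjusted p under 0.05 there were 0 of the 37 for age, 0 for fibrosis and 2 for the adipocyte percentage, where 4.76%, 2.83% and 3.08% of all genes passed. limma slopes called 0 of the 37 for each trait as well.

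For age, rho ran from -0.37 to 0.67 over the 37 genes with a median of 0.02, and 20 were above 0, where 47.5% of all genes were. Leaving out 1 cat gave 10 (without cat 11) to 34 (without cat 36) above 0 and medians from -0.19 to 0.33, so that the direction rested on single cats, and reads that were not scaled gave 1 above 0. With the flow cells centred on their means 25 were above 0, where 47.1% of all genes were, and the limma slope with flow cell as a covariate was above 0 for 30, where 46.9% of all genes were. The smallest p was that of NDUFB5, with rho = 0.67 (exact permutation p = 0.059, adjusted p = 0.91) and Pearson's r = 0.49 (exact permutation p = 0.18). Without cat 30 and either cat 15 or cat 36, the cats farthest from the median age, its r was 0.53 or 0.43, and with the flow cells centred on their means it was 0.67 (permutation within flow cells, p = 0.076). NDUFA1 had rho = 0.57 (exact permutation p = 0.12, adjusted p = 0.92) and r = 0.56 (exact permutation p = 0.12), and its r was 0.42 or 0.69 without those cats. With the flow cells centred, the r of NDUFA1 was 0.85 (permutation within flow cells, p = 0.0069) and its rho was 0.80 (p = 0.035 by the same permutation). After centring, 2 of the 37 genes, NDUFA1 and NDUFS7, had an unadjusted p under 0.05, where 6.2% of all genes did. Permutation within flow cells gave no gene a rank p below 0.0069 for age or fibrosis, which is too coarse for a call over 8715 genes.

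For the myocardial fibrosis percentage, rho ran from -0.71 to 0.24 with a median of -0.07, and 11 of the 37 genes were above 0, where 49.4% of all genes were. Leaving out 1 cat gave 2 (without cat 15) to 29 (without cat 23) above 0 and medians from -0.29 to 0.18, so that the direction rested on single cats, and reads that were not scaled gave 0. With the flow cells centred on their means, over 7 cats, 22 were above 0, where 49% of all genes were. The total fibrosis percentage in place of the myocardial one gave 25 above 0. The limma slope on myocardial fibrosis with flow cell as a covariate was above 0 for 28, where 49.1% of all genes were. NDUFA5 had rho = -0.71 (exact permutation p = 0.058, adjusted p = 1) and r = -0.75 (exact permutation p = 0.032). Its r was -0.79 without cats 23 and 15, those farthest from the median, and -0.81 with the flow cells centred over 7 cats (permutation within flow cells, p = 0.056). NDUFA5 was among the genes not called between the flow cells. NDUFA12 came next with rho = -0.50 (exact permutation p = 0.22, adjusted p = 1) and r = -0.37 (exact permutation p = 0.36), an r of -0.45 without those 2 cats and of -0.47 with the flow cells centred (permutation within flow cells, p = 0.38). None of the 37 had an unadjusted p under 0.05 after centring, by rank, where 3.19% of all genes did.

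For the adipocyte percentage, rho was above 0 for 32 of the 37 genes, where it was above 0 for 50.4% of all genes, and its median was 0.35 against 0.01 over all genes. The median was 0.12 without cat 36, 0.17 without cat 11 and 0.55 without cat 31, and with 1 cat left out 24 to 34 genes were above 0. On reads that were not scaled it was 0.01, with 19 genes above 0. With the flow cells centred, 31 of the 37 were above 0 with a median of 0.44, where 50.6% of all genes were above 0. Since the 37 genes vary together across libraries, these are not 37 separate observations, and no test was made over them. The slides of cats 10, 15, 23, 30 and 36 were stained and scanned in a separate batch and scored with their own adipocyte model. Adipocyte percentages of these cats exceeded those of all other cats used for this trait except cat 31, so batch and percentage largely coincided. The part of the batch in these rho values was not tested. The percentage was measured on sections with mostly epicardial fat, whereas the RNA came from the left ventricular free wall. NDUFB6 had rho = 0.66 (permutation p = 0.043, adjusted p = 1) and r = 0.50 (permutation p = 0.14). Its r fell to 0.30 without cats 36 and 31 and was 0.65 with the flow cells centred (permutation within flow cells, p = 0.022). NDUFC1 had rho = 0.65 (permutation p = 0.049, adjusted p = 1) and r = 0.74 (permutation p = 0.015), but its r was 0.21 without cats 36 and 31, so that the linear relation rested on those cats. With the flow cells centred, the r of NDUFC1 was 0.71 (permutation within flow cells, p = 0.012). After centring, 6 of the 37 genes had an unadjusted p under 0.05 (NDUFA7, NDUFA8, NDUFA11, NDUFB6, NDUFB9 and NDUFB10), where 4.56% of all genes did.

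**Figure D5:**
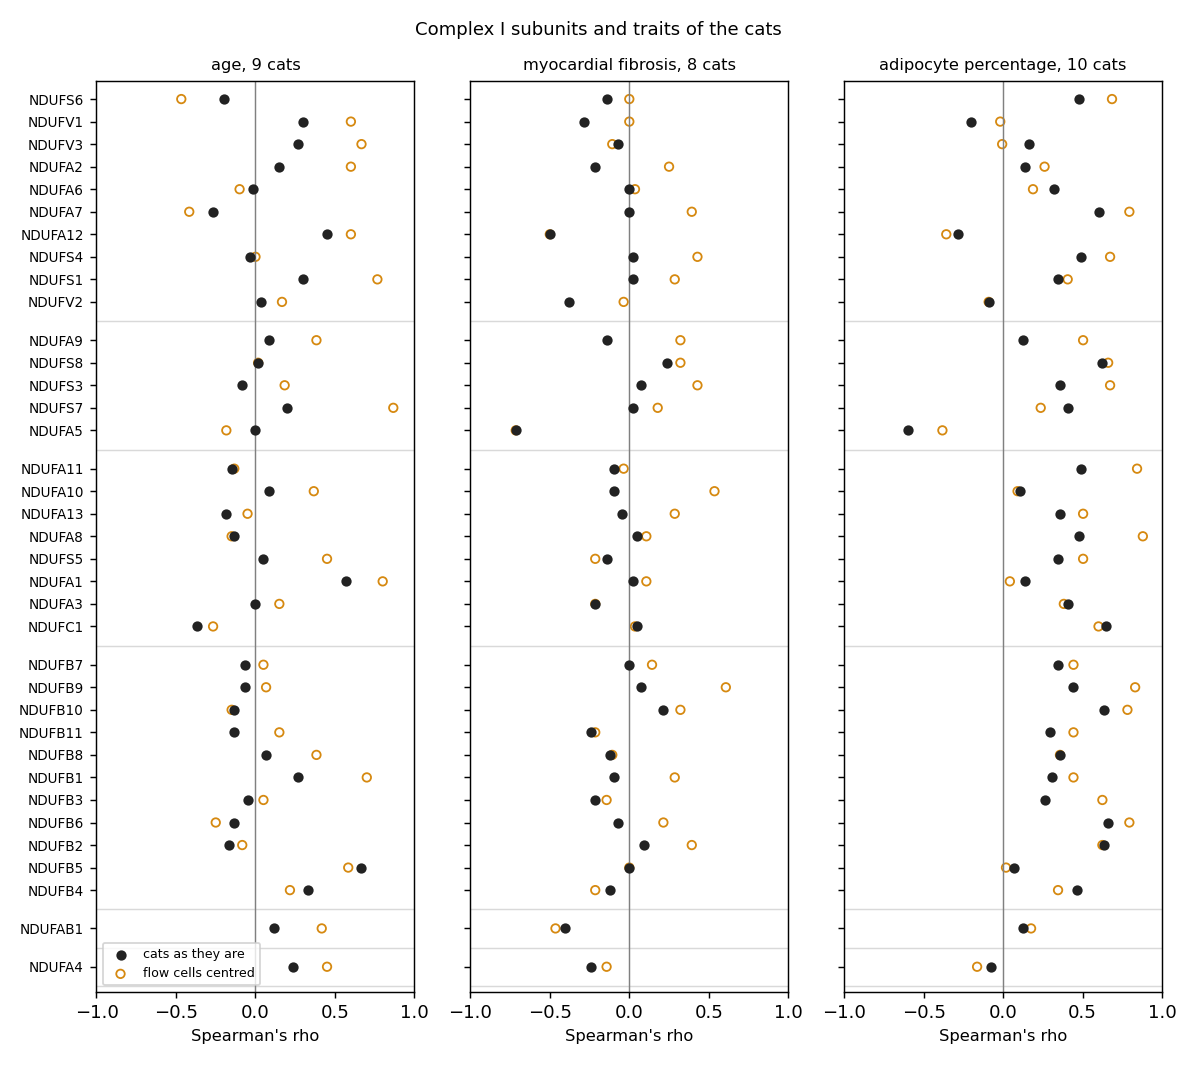
Spearman's rho of 36 complex I genes with age (9 cats), the myocardial fibrosis percentage (8 cats) and the adipocyte percentage (10 cats), with the cats as they are (filled) and with the flow cells centred on their means (open). The open points for fibrosis rest on 7 cats. For the adipocyte percentage 31 of 36 filled points lie above 0, and no gene drawn passed the adjusted test for any trait.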

How the data were processed

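Left ventricular RNA of 12 cats was sequenced directly on Nanopore flow cells. Base calling was by Guppy, followed by a quality filter; the authors aligned reads to felCat9 with minimap2 and obtained counts by gene from featureCounts; the strand setting is not given in the sources used here. The deposited signal values are reads divided by 1 size factor per library: dividing by what 1 read is worth returned whole numbers for 100% of values (tolerance 1e-06), and the factors match the median of ratios within a relative 2.22e-15. Groups are the flow cells in the library names. The traits came from the study's cohort table by cat number. Outcomes, which the cohort table also holds, were not compared, since groups were taken from the labels only and the labels give none.

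limma with an intensity trend was fitted on log2(value + 1) over 8715 genes (10 or more reads in 3 or more of the 10 listed libraries), with 3 flow cell means. Traits were tested with Spearman's rho and permutation (100000 draws for 10 cats). Adjusted p-values are Benjamini-Hochberg values. A fold change on this scale understates the change of genes with low values. Intervals cover counting error only. edgeR and DESeq2 were run on the recovered whole reads as alternatives. The alternatives also covered unscaled reads, TMM, other filters and pseudocounts, the barcode number as a block, flow cell as a covariate, and each library left out.

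The genes, the lists and the tests were chosen with earlier results of these data known. Named with values in every library are the core subunits, NDUFA4, the genes with the highest and lowest mean value, and those with the smallest p, up to 6 for flow cell A, up to 3 for C against B and up to 2 per trait. From the other lists, up to 3 called genes a direction were named, besides some that were singled out after their values were seen (MYL2, NDUFAF5, TFAM and SDHB). Of the 37 genes, 9 (NDUFA2, NDUFA5, NDUFA7, NDUFA9, NDUFB1, NDUFB4, NDUFB8, NDUFS3 and NDUFS4) overlap another gene in the RefSeq gene table, which is of another assembly and was used for names and neighbours only. 1 gene of the 37 is counted in the totals but its own values are not reported here. The tests were tried on simulated data. The versions were DESeq2 1.42.0, edgeR 4.0.16 and limma 3.58.1 under R 4.3.3, and scipy 1.17.1, numpy 2.4.6, matplotlib 3.10.9 and pandas 2.3.3 under Python 3.11.15.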

Additional observations from a re-analysis of the deposited data

Results flagged for a closer look

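Within flow cells of 4 libraries, the highest or lowest library was compared with its nearest neighbour for the share of complex I reads and for each gene whose values are given in every library. In 3 of 72 such groups the gap, as a part of the group's range, exceeded Dixon's 95% critical value, and chance gives about 1 group in 20. NDUFS8 on flow cell C stood at 1489 in cat 29, with the next at 994. NDUFA2 on flow cell A stood at 231 in cat 11, with the next at 321. NDUFB6 on flow cell A stood at 723 in cat 31, with the next at 479.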

How the results depend on the processing

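For flow cell A, the 17 calls became 0 of 37 on reads that were not scaled, where the median of all genes shifted to 0.41 and that of the subunits, relative to it, was -0.76. They became 9 without cats 22 and 29, and 0 without the 2 libraries with the most smooth muscle marker reads, a comparison added after seeing the data. Leaving out 1 library gave 4 to 22 calls, 4 without cat 11 and 10 without cat 31, with 47 to 530 calls over all genes against 475. edgeR called 15 (465 over all genes), DESeq2 24 (824), and the fit with the barcode number as a block 17 (567). With cardiomyocyte marker reads as the denominator, the log2 ratio of shares between flow cell A and the others moved from -0.59 to -0.36; leaving out 1 library gave -0.67 to -0.47. The spread of the make-up between flow cell A and the others was 0.34 to 0.38 (SD of log2 ratios) with 1 library left out. C against B and the 3 traits gave 0 calls among the 37 under every alternative run. The cause of these shifts was not tested. With 4 libraries per flow cell and 8 to 10 cats per trait, small differences were beyond the reach of these data, and genes with few reads, such as NDUFAB1 and NDUFA12, carry the widest counting error.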

Other observations

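The subunits varied together across libraries. Over the 666 pairs of the 37 genes, the median Pearson's r of log2 values across the 12 libraries was 0.75, and 660 pairs were above 0. The mean was 0.69, where the mean over all pairs of tested genes was 0.00056. The share of pairs above 0 over all tested genes was not computed. With each flow cell centred on its mean the median was 0.55 and 634 pairs were above 0, and in the 8 libraries of flow cells B and C alone it was 0.49. These are descriptions across libraries that share depth, scaling and tissue make-up. NDUFB8 followed the mean of the other 36 most closely (r = 0.97), and NDUFB4 (r = 0.24), NDUFA5 (r = 0.43) and NDUFA12 (r = 0.50) least closely. With the flow cells centred, NDUFB4 reached r = 0.63, whereas NDUFAB1, the gene with the fewest reads, fell to r = 0.08.

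Across the 12 libraries the coefficient of variation of a gene ran from 17.8% for NDUFS4 to 57.7% for NDUFA12. Counting error alone gave 3.15% for NDUFS4 and 11.5% for NDUFA12. In the 8 libraries of flow cells B and C, NDUFA12 again varied most (57.9%).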
